A study of Mus musculus with 6 samples.

Results

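Bdnf, which encodes brain-derived neurotrophic factor, and 8 other genes for secreted growth factors (Pdgfa, Pdgfb, Hbegf, Ereg, Fgf2, Csf1, Lif and Igf2) were followed in bEnd.3 cells, a mouse brain endothelial line. The 9 genes were picked by name from the 30077 rows of the deposited gene table, and ligands of the VEGF and TGF-beta families were left out. They were selected on values measured in these same libraries, so their differences between the groups are given as a description and carry no test of their own. The first group of 3 libraries came from wild-type bEnd.3 cells that had been given 100 µl of medium holding mitochondria taken from an osteocyte-like mouse line, MLO-Y4. The control group of 3 libraries came from the same cells given that volume of medium alone, and all cells were collected after 24 h. Both groups are cultures of 1 cell line, both lines are from mouse, and the amount of mitochondria is not given in the sources used here. The gene counts used here do not tell RNA carried over with the mitochondria apart from RNA of the receiving cells.

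Growth factors of this kind are short proteins that a cell releases and that act through receptors on its own surface or on neighbouring cells. BDNF is a neurotrophin that signals through the kinase receptor TrkB (Ntrk2) and the receptor p75 (Ngfr), and brain endothelium is one of its sources outside neurons. Endothelial PDGF-B draws pericytes to vessels through PDGFR-beta, HB-EGF and epiregulin are shed from the cell surface and bind EGF receptors, and M-CSF, encoded by Csf1, sustains macrophages and microglia.

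Bdnf has several alternative first exons, each with its own start site, and the deposited table adds the reads of all of them, with 5 transcripts listed for the gene. The reads therefore do not say which start site was used. RefSeq places 7 Bdnf start sites on GRCm38.p6. The 3 upstream windows that hold a motif searched for CREB, AP-1 or TEAD factors are shown. Each window is the 250 bases before a start site, 5′ to 3′ on the plus strand, with the motif in capitals. The second window holds GGAATG and TGAATCA, the third holds ACGTCA, which reads TGACGT on the other strand, and the seventh holds CATTCC, which reads GGAATG on the other strand.
Bdnf start site 2, chr2:109676782-109677031: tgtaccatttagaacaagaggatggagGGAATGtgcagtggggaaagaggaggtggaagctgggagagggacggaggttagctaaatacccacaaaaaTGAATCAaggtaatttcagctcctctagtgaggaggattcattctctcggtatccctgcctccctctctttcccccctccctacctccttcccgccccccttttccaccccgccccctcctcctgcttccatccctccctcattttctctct
Bdnf start site 3, chr2:109692186-109692435: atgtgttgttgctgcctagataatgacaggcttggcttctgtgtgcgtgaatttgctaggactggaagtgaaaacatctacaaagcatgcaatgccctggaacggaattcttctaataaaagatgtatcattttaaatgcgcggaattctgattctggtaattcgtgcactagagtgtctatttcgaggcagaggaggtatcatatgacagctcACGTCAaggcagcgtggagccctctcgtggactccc
Bdnf start site 7, chr2:109722671-109722920: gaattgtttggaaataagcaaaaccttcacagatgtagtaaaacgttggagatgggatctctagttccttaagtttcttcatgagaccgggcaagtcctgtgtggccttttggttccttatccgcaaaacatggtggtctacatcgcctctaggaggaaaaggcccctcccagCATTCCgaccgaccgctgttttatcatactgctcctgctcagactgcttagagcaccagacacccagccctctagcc

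Both strands were searched for the CRE (TGACGTCA), its core (TGACGT), the AP-1 motif (TGANTCA), the TEAD motif (GGAATG), the antioxidant response element (TGACNNNGC) and the CArG box. Of the 9 genes, 6 were in the promoter table (Bdnf, Pdgfa, Fgf2, Csf1, Lif and Igf2), with 16 start sites in all. Every window with a full CRE would also hold the core, and no window of these genes held the full CRE, which occurs in 1.55% of all 32851 windows of this length. The core was in 1 of the 16 windows (6.47% of all), 36 bases before the third Bdnf start site. The AP-1 motif, searched with any base at N, was in 2 (6.75% of all), as TGAATCA before Bdnf and as TGACTCA before Lif. The TEAD motif was in 5 (12.6% of all), 2 of Bdnf and 3 of Igf2. The antioxidant element was in 3 (10.2% of all), before Fgf2, Pdgfa and Lif and before none of the 7 Bdnf start sites, and the CArG box in 1 window of Igf2 (1.47% of all). A match describes letters in the genome and is not evidence that a factor binds there.

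Libraries held 59651087 to 63581460 counts in the mitochondria group and 64609635 to 65576084 in the control group. Reads at the 18S ribosomal locus CT010467 made up 3.93% to 7.10% of counts in the mitochondria group and 1.58% to 3.20% in the control group, and reads of Lars2 made up 0.440% to 0.825% and 0.158% to 0.344% in those groups. The endothelial markers summed to 1147 to 1216 FPKM (fragments scaled by exon length and library depth) in mitochondria libraries and to 1208.5 to 1213 FPKM in control libraries, and of the 12 only Vwf was under 1 FPKM throughout. Markers of osteocytes and osteoblasts summed to 4.96 to 5.88 FPKM in mitochondria libraries and to 4.63 to 5.49 FPKM in control libraries, most of it Spp1. Of the 12 markers of that list in the table, 11 were under 1 FPKM in every library and Bglap was listed at 0 throughout. Of 9 pericyte and mural markers, 8 were under 1 FPKM in every library, and the sum was 1.37 to 8.51 FPKM in mitochondria libraries and 2.89 to 5.58 FPKM in control libraries. Of 8 macrophage markers, 6 were under 1 FPKM throughout, and the sum was 50.1 to 60.9 FPKM in mitochondria libraries and 37.3 to 39.4 FPKM in control libraries. Nearly all of that sum was Cd68, a lysosomal membrane glycoprotein gene. It rose by 0.55 on the log2 scale (SE 0.069, adjusted p = 0.00212 in edgeR, called in each of 6 fits with a library left out).

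The whole table was tested with edgeR's quasi-likelihood test, and a gene was called if its Benjamini-Hochberg adjusted p was under 0.05. The test took in 11255 genes, those with 1 FPKM or more in 3 or more libraries. Of the 9 growth factor genes, 7 passed this filter, and Lif and Igf2 did not. Of all tested genes, 2.09% were called in either direction, 1.10% lower (124 genes) and 0.986% higher (111 genes) in cells given mitochondria. The 235 calls became 233 without mitochondria 2, 142 and 145 without mitochondria 1 and control 1, and 68 to 81 without mitochondria 3, control 2 or control 3. With library totals as the only scaling, edgeR called 292 lower and 61 higher. The split was 32 lower and 7 higher in limma on log2(FPKM + 1), and 308 lower and 20 higher in limma on log2(TPM + 1). The median log2 fold change of all genes was 0.0011 in edgeR, −0.051 in limma on log2(FPKM + 1) and −0.15 in limma on TPM. Log2 differences on the TPM scale are therefore to be read against −0.15, and differences in FPKM against a smaller shift of the same sign.

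Among the 7 tested growth factor genes, Bdnf and Hbegf fell and none rose. The 2 called of 7 stand beside the 1.10% of all tested genes called lower. Since these genes were chosen with this contrast in view, nothing is read from that comparison. The median log2 fold change of the 7 was −0.14, with 6 of 7 below 0, beside a median of 0.0011 and 49.6% below 0 among all tested genes. For Bdnf, Hbegf, Ereg and Csf1, every mitochondria library was below every control library in CPM (counts scaled by library size with TMM), beside 11.0% of all tested genes. No growth factor gene was higher without overlap, beside 10.1% of all tested genes, so 4 of 7 were apart in either direction, beside 21.1%. These shares too are given with nothing read from them. Pdgfa, Pdgfb and Fgf2 overlapped between the groups. In bulk RNA of this kind, fewer cells that express a gene and less RNA of it per cell cannot be told apart.

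**Figure D1:**
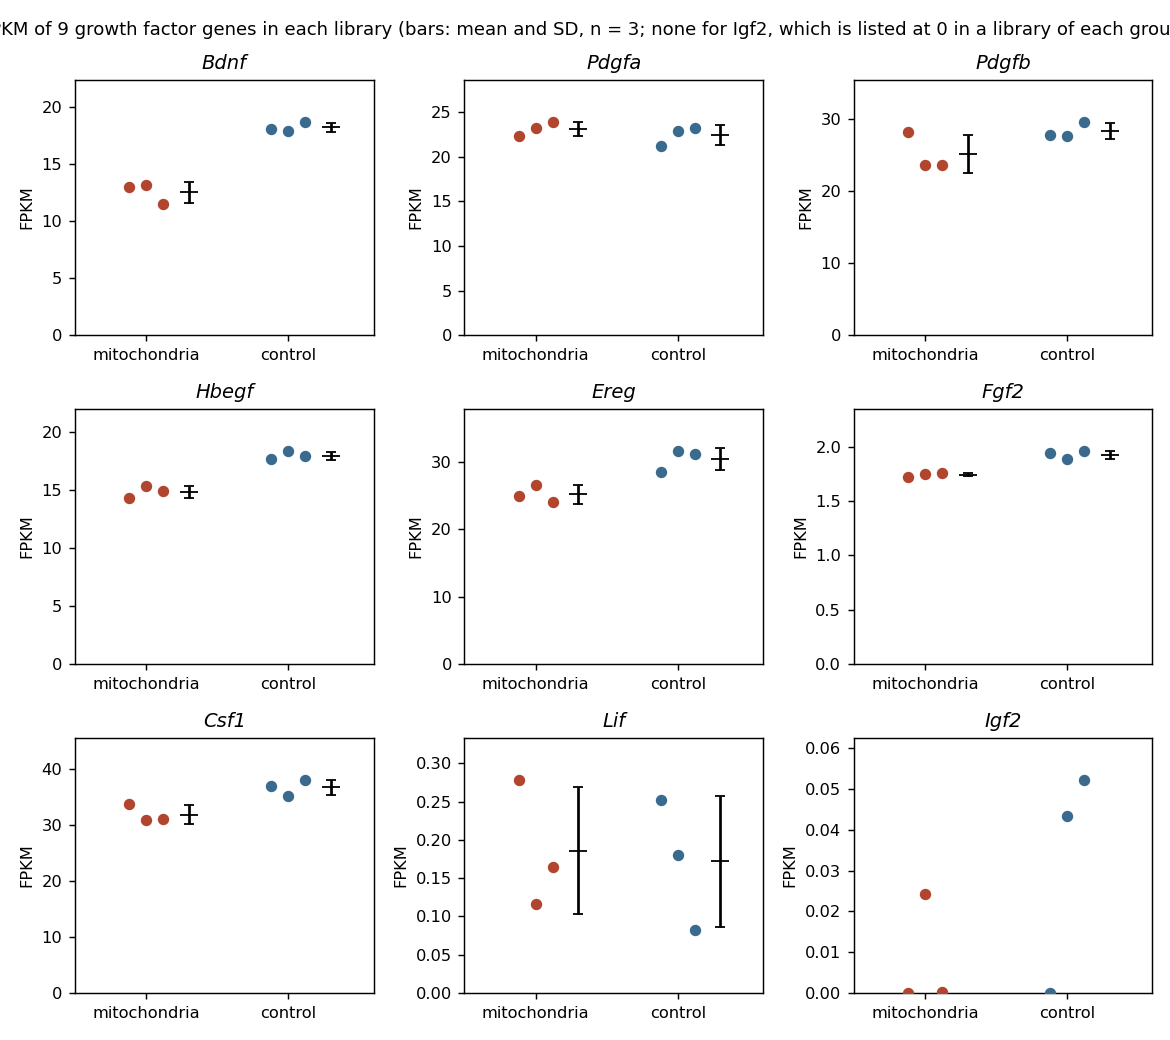
FPKM of each of the 9 growth factor genes in the 3 mitochondria and the 3 control libraries. Vertical axes start at 0, with a separate scale for each gene. Points are libraries and bars are the mean and SD, with no bar for Igf2. The 3 mitochondria libraries sit at 11.5 to 13.1 FPKM for Bdnf, below the 3 control libraries at 17.9 to 18.6 FPKM, while for Pdgfa and Lif the points of both groups interleave.

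Per kilobase of exon the genes covered a wide range of levels, and the order differed slightly between the groups. In mitochondria libraries Csf1 was highest at a mean of 31.9 ± 1.64 FPKM (SD, n = 3), followed by Ereg (25.2 ± 1.35), Pdgfb (25.2 ± 2.67) and Pdgfa (23.1 ± 0.79), whose neighbouring ranges overlapped. Hbegf (14.9 ± 0.54 FPKM) and Bdnf (12.5 ± 0.90 FPKM) came next, with ranges that did not overlap. In control libraries Csf1 was again highest at 36.8 ± 1.40 FPKM, Ereg (30.4 ± 1.65) and Pdgfb (28.4 ± 1.05) overlapped, and Pdgfa (22.4 ± 1.12) lay below them. There Bdnf (18.2 ± 0.39 FPKM) and Hbegf (18.0 ± 0.36 FPKM) had overlapping ranges, with Bdnf slightly the higher mean. Fgf2 was far lower, at 1.74 ± 0.017 FPKM in mitochondria and 1.93 ± 0.037 FPKM in control libraries, and Lif and Igf2 were under 0.3 FPKM in every library. Bdnf lay at the 72.7th percentile of mean FPKM among tested genes and Csf1 at the 88.1st.

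Bdnf (ENSMUSG00000048482, GRCm38 chromosome 2: 109674700 to 109727007, plus strand) fell in cells given mitochondria. Mitochondria libraries 1, 2 and 3 held 12.9, 13.1 and 11.5 FPKM (5782, 5554 and 4924 counts), and control libraries 1, 2 and 3 held 18.1, 17.9 and 18.6 FPKM (8232, 8190 and 8443 counts). The groups were well apart, and mitochondria 3 was the lowest library. On the CPM scale Bdnf was 90.5 ± 6.89 in mitochondria libraries and 126 ± 4.25 in control libraries (SD, n = 3). The log2 fold change was −0.48 (SE 0.055, 95% interval −0.60 to −0.36), a ratio of 0.717, the 113th lowest of 11255. Leaving out each library in turn gave −0.53 to −0.42, called in all 6 fits, which reuse the libraries on which Bdnf was chosen. The ribosomal share moved with the groups. With that share as a covariate the log2 fold change was −0.56 (SE 0.0996) and Bdnf was no longer called. GENCODE M21 places an antisense gene, Gm45346, over 896 exon bases of Bdnf. Gm45346 has no row in the deposited gene table and so could not be followed. Whether reads were counted by strand is not given in the sources used here.

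Hbegf and Ereg encode EGF-family ligands made as membrane-bound precursors, and the log2 fold changes of the pair were about equal and below 0. Hbegf (ENSMUSG00000024486, chromosome 18: 36504927 to 36515805, minus strand) held 14.3, 15.4 and 14.9 FPKM in mitochondria libraries 1, 2 and 3, and 17.7, 18.4 and 17.9 FPKM in control libraries 1, 2 and 3. The control libraries were tight, with a coefficient of variation of 0.618% on the CPM scale, beside 5.87% in mitochondria libraries and a median of 4.42% for 6939 genes with a mean of at least 5 FPKM. Hbegf fell by 0.21 on the log2 scale (SE 0.048, 95% interval −0.32 to −0.11), a ratio of 0.863. That call was lost without mitochondria 1 or 3 or any 1 control library, while the log2 fold change stayed between −0.25 and −0.17. A fit that took in the ribosomal share gave −0.29 (SE 0.087), and no call.

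Ereg (ENSMUSG00000029377, chromosome 5: 91074622 to 91093646, plus strand), which encodes epiregulin, lay just outside the threshold. Mitochondria libraries 1, 2 and 3 held 24.9, 26.6 and 24.0 FPKM and control libraries 1, 2 and 3 held 28.6, 31.6 and 31.2 FPKM. The highest mitochondria library was below the lowest control library. The log2 fold change was −0.21 (SE 0.054, 95% interval −0.33 to −0.094), the same to 2 decimals as that of Hbegf just inside the threshold. Ereg was called without mitochondria 2 and in none of the other fits with 1 library left out, which ranged from −0.27 to −0.18 in all 6. An antisense gene, Gm19610, shares 141 exon bases with Ereg and held 108 to 189 counts in mitochondria and 127 to 202 counts in control libraries.

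The PDGF chains, which pair to form the dimers that bind PDGF receptors, overlapped between the groups. Pdgfb (ENSMUSG00000000489, chromosome 15: 79995874 to 80014977, minus strand) held 28.3, 23.6 and 23.6 FPKM in mitochondria libraries 1, 2 and 3, and 27.8, 27.7 and 29.6 FPKM in control libraries 1, 2 and 3. Mitochondria 1 lay among the controls and the other mitochondria libraries below them, and the coefficient of variation in the mitochondria group was 10.6% on the FPKM scale, beside 3.72% in controls. The log2 fold change was −0.11 (SE 0.059, 95% interval −0.24 to 0.015), and with 1 library left out it was −0.19 without mitochondria 1, −0.073 without mitochondria 3 and −0.077 without control 3. Pdgfb was called in none of 6 fits without a library.

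Pdgfa (ENSMUSG00000025856, chromosome 5: 138976014 to 138997370, minus strand) was the one tested growth factor gene above 0. It held 22.3, 23.3 and 23.9 FPKM in mitochondria libraries 1, 2 and 3, and 21.2, 22.9 and 23.3 FPKM in control libraries 1, 2 and 3, with broad overlap. The log2 fold change was 0.11 (SE 0.052, 95% interval −0.0084 to 0.22) and turned to −0.053 on the TPM scale, where the median of all genes was −0.15. The antisense gene 6330403L08Rik shares 813 exon bases with Pdgfa. It held 1767, 1696 and 1579 counts in mitochondria libraries and 1995, 2000 and 1995 counts in control libraries. Every mitochondria library was below every control library in these raw counts, which are not scaled for the lower library totals of the mitochondria group. The log2 fold change of 6330403L08Rik was −0.12 (SE 0.078), with an edgeR adjusted p = 0.515.

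Csf1 (ENSMUSG00000014599, chromosome 3: 107741048 to 107760469, minus strand), the most abundant of the 9, held 33.8, 30.9 and 31.1 FPKM in mitochondria libraries 1, 2 and 3, and 37.0, 35.3 and 38.1 FPKM in control libraries 1, 2 and 3. The groups did not overlap, and mitochondria 1 and control 2 were the nearest libraries between them. Its log2 fold change was −0.14 (SE 0.044, 95% interval −0.24 to −0.0475) and it was called in none of the 6 fits without a library. Fgf2 (ENSMUSG00000037225, chromosome 3: 37348346 to 37410108, plus strand), which encodes basic fibroblast growth factor, an endothelial mitogen, held 1.73, 1.75 and 1.76 FPKM in mitochondria libraries and 1.94, 1.89 and 1.96 FPKM in control libraries. The FPKM ranges were apart but the CPM ranges overlapped, and the median of all genes was −0.051 in limma on log2(FPKM + 1). In edgeR the log2 fold change of Fgf2 was −0.083 (SE 0.099, 95% interval −0.30 to 0.13). Nudt6, whose transcripts run antisense to Fgf2 over 640 exon bases, held 36 to 58 counts in mitochondria and 27 to 52 counts in control libraries, against 810 to 844 and 945 to 970 counts for Fgf2 in those groups.

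Lif and Igf2 were below the filter. Lif (ENSMUSG00000034394, chromosome 11: 4257557 to 4272514, plus strand), which encodes leukaemia inhibitory factor of the IL-6 family, held 87, 35 and 50 counts in mitochondria libraries 1, 2 and 3, and 81, 58 and 27 counts in control libraries 1, 2 and 3. Its FPKM of 0.12 to 0.28 in mitochondria libraries and 0.082 to 0.25 in control libraries overlapped almost entirely. Igf2 (ENSMUSG00000048583, chromosome 7: 142650766 to 142666816, minus strand), which encodes insulin-like growth factor 2, held 0, 12 and 1 counts in mitochondria libraries and 0, 20 and 23 counts in control libraries. A library of each group was thus at 0. These few reads are uncertain, because a readthrough gene on the same strand, Gm49394, shares 3596 exon bases with Igf2 and was given 17 to 34 counts in mitochondria and 4 to 35 counts in control libraries.

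**Figure D2:**
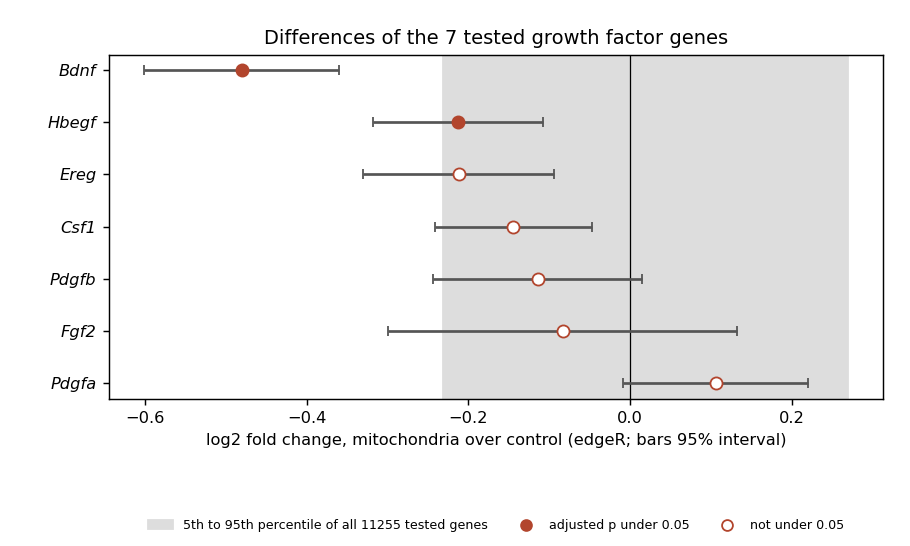
Log2 fold change, mitochondria over control (horizontal axis), of the 7 tested growth factor genes with its 95% interval from edgeR; filled points have an adjusted p under 0.05 and the grey band spans the 5th to 95th percentile of all 11255 tested genes. Bdnf at −0.48 lies left of the band, and the other 6 points, from −0.21 to 0.11, lie inside it.

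Receptors of several of these ligands were under 1 FPKM in every library. Of the neurotrophin receptors, Ngfr was listed at 0 in all 6 libraries and Ntrk2 held 0.0022 to 0.021 FPKM in mitochondria and 0.0051 to 0.016 FPKM in control libraries. Csf1r, the M-CSF receptor, held 0.13 to 0.20 FPKM in mitochondria and 0.12 to 0.16 FPKM in control libraries. Egfr, the receptor shared by HB-EGF and epiregulin, was also below the filter, at 0.57 to 0.68 FPKM in mitochondria and 0.63 to 0.88 FPKM in control libraries. Lifr, the specific chain of the LIF receptor, held 0.31 to 0.43 FPKM in mitochondria and 0.26 to 0.37 FPKM in control libraries. Pdgfrb, the receptor of PDGF-B, held 0.53 to 0.82 FPKM in mitochondria and 0.52 to 0.65 FPKM in control libraries. The order was the other way for the low ligands. Fgfr1, a receptor of FGF2, held 5.52 to 6.04 FPKM in mitochondria and 5.28 to 5.64 FPKM in control libraries, above Fgf2 in every library. Its log2 fold change was 0.14 (SE 0.055, adjusted p = 0.229 in edgeR). Il6st, at 16.0 to 17.5 FPKM in mitochondria and 15.7 to 16.0 FPKM in control libraries, was above Lif, and Igf1r and Igf2r, at 4.18 to 12.5 FPKM over all libraries, were above Igf2.

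**Figure D3:**
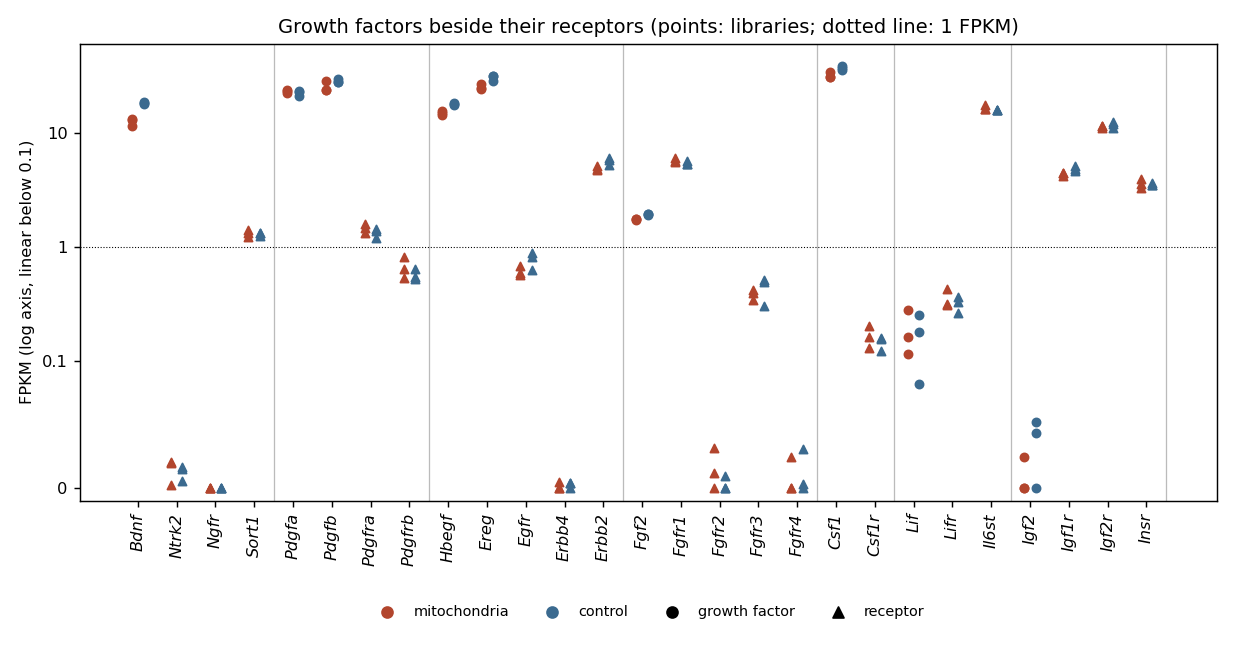
FPKM (log axis, linear below 0.1) of the 9 growth factor genes (circles) and of receptors for each (triangles) in the 3 mitochondria libraries (red) and the 3 control libraries (blue), with a dotted line at 1 FPKM. Ngfr lies at 0 and Ntrk2 at or below 0.021 FPKM beside Bdnf at 11.5 to 18.6 FPKM, and Csf1r at or below 0.20 FPKM beside Csf1 at 30.9 to 38.1 FPKM.

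No tested gene of the receptor lists was called by edgeR. Of the neurotrophin receptor list only Sort1 (log2 fold change 0.091, SE 0.11; −0.056 on TPM and 0.045 without mitochondria 3) and Sorcs2 (−0.13, SE 0.088; −0.071 without mitochondria 1 and −0.20 without mitochondria 2), both sorting receptors that bind proneurotrophins, were tested. Pdgfra, a receptor that binds PDGF-A, had a log2 fold change of 0.18 (SE 0.11), 0.11 without mitochondria 3 and 0.096 without control 2. The EGF-family co-receptor Erbb2 held 4.73 to 5.09 FPKM in mitochondria and 5.18 to 5.96 FPKM in control libraries, with a log2 fold change of −0.15 (SE 0.079, edgeR adjusted p = 0.376). Of 9 tested FGF receptors and heparan sulphate carriers none was called by edgeR, while 4 had an unadjusted p under 0.05, beside 16.1% of all tested genes, and DESeq2 called 2, Sdc4 and Hspg2. Sdc4, a cell surface proteoglycan, was at 0.33 (SE 0.10, adjusted p = 0.130 in edgeR) and Hspg2, the basement membrane proteoglycan perlecan, at −0.14 (SE 0.033, adjusted p = 0.0590). Of the IL-6-family receptors, the shared signalling chain Il6st was at 0.12 (SE 0.037, adjusted p = 0.147 in edgeR; −0.042 on TPM, and called by DESeq2) and Il11ra1 at −0.038 (SE 0.13; −0.10 to 0.068 with 1 library left out, above 0 without mitochondria 2 or control 1). The 8 tested genes of the IGF list held no call by edgeR or DESeq2, and 2 had an unadjusted p under 0.05 in edgeR, beside the same 16.1%. These were the IGF binding protein genes Igfbp4 (0.12, SE 0.045; −0.037 on TPM, 0.090 without mitochondria 1 and 0.080 without control 2) and Igfbp7 (−0.24, SE 0.093). Igfbp7 was called in limma on log2(TPM + 1), at −0.39, and not in limma on FPKM. The receptors for IGF2 had log2 fold changes of −0.089 (Igf1r, SE 0.051) and −0.0016 (Igf2r, SE 0.053). None of the 8 receptors of haematopoietic growth factors passed the filter, the highest being Csf2ra at up to 0.961 FPKM.

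Of the other ligands in the same families, Nrg1 fell. Nrg1 encodes neuregulin 1, an EGF-family ligand that binds ErbB3 and ErbB4. It held 7.01, 6.68 and 6.43 FPKM in mitochondria libraries 1, 2 and 3, and 8.0, 8.18 and 8.31 FPKM in control libraries 1, 2 and 3. No mitochondria library reached the control range. Its log2 fold change was −0.22 (SE 0.041, adjusted p = 0.0190 in edgeR). With 1 library left out it was called in 2 of 6 fits, those without mitochondria 1 or mitochondria 2. The receptors Erbb3 and Erbb4 held at most 0.096 FPKM. The one other tested EGF-family ligand, Tgfa, was at 0.021 (SE 0.053).

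Among the remaining lists of ligands, edgeR called Grn and no other gene. Of 3 tested neurotrophins, GDNF-family and related ligands, none was called, and Ntf3 (neurotrophin 3) was at −0.28 (SE 0.13, adjusted p = 0.302 in edgeR) and Manf, a secreted protein of the endoplasmic reticulum, at −0.078 (SE 0.053, adjusted p = 0.520; 0.066 with the ribosomal share in the fit, −0.028 without control 2 and −0.13 without control 3). Of the 3, 1 had an unadjusted p under 0.05 in edgeR, beside 16.1% of all tested genes, and DESeq2 and limma called none. Pdgfd, the most abundant other PDGF chain, was at −0.12 (SE 0.052, adjusted p = 0.274 in edgeR). Clcf1, an IL-6-family cytokine, was at −0.32 (SE 0.086, adjusted p = 0.0866 in edgeR), with all mitochondria libraries (6.56 to 7.53 FPKM) below all control libraries (8.34 to 9.75 FPKM), and DESeq2 called it. Kitl, stem cell factor, was at 0.068 (SE 0.045; −0.091 on TPM and 0.019 without mitochondria 2). No other FGF ligand and no other insulin-family ligand passed the filter, and the highest other FGF was Fgf15, at up to 1.18 FPKM. Grn, which encodes the secreted protein progranulin, rose among 4 tested other growth factors. It held 141, 125 and 133 FPKM in mitochondria libraries 1, 2 and 3 and 123, 120.0 and 126 FPKM in control libraries 1, 2 and 3, overlapping on the FPKM scale but not in CPM. Its log2 fold change was 0.18 (SE 0.039, adjusted p = 0.0399 in edgeR; 0.017 on TPM). It was called in 1 of 6 fits with a library left out, that without mitochondria 2.

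In all, 5 of 80 tested relatives, receptors, processing enzymes and regulators were called, 1 higher and 4 lower, beside 2.09% of all tested genes called, 0.986% higher and 1.10% lower. With 1 library left out, 5 were called without mitochondria 2, 3 without mitochondria 1 or control 1, 2 without control 2, and 1 without mitochondria 3 or control 3. The median log2 fold change of the 80 was −0.024, beside 0.0011 for all tested genes. The other 3 that fell were genes induced by, or restraining, receptor tyrosine kinase signalling, out of 16 tested in that list, beside the 1.10% of all tested genes called lower. The list had a median of −0.071, with 14 of 16 below 0, beside 0.0011 and 49.6% below 0 among all tested genes. The lists were written with earlier results of these data known, so nothing is read from these shares. Dusp5, a nuclear phosphatase of ERK, held 21.5, 20.7 and 20.1 FPKM in mitochondria libraries 1, 2 and 3, and 26.1, 27.1 and 26.0 FPKM in control libraries 1, 2 and 3. It fell by 0.28 on the log2 scale (SE 0.045, adjusted p = 0.00884 in edgeR), and without mitochondria 3 it was not called. Phlda1, a pleckstrin homology-like domain gene, held 35.8, 32.6 and 35.8 FPKM in mitochondria libraries and 42.4, 43.8 and 43.2 FPKM in control libraries. It fell by 0.25 (SE 0.043, adjusted p = 0.0123 in edgeR), and without control 3 it was not called. Lrig1, which restrains ErbB receptors, held 12.0, 11.5 and 11.6 FPKM in mitochondria libraries and 13.3, 14.6 and 14.3 FPKM in control libraries. It fell by 0.20 (SE 0.044, adjusted p = 0.0415 in edgeR) and was called in 1 of 6 fits without a library, that without control 1. The groups did not overlap for Dusp5, Phlda1 or Lrig1.

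**Figure D4:**
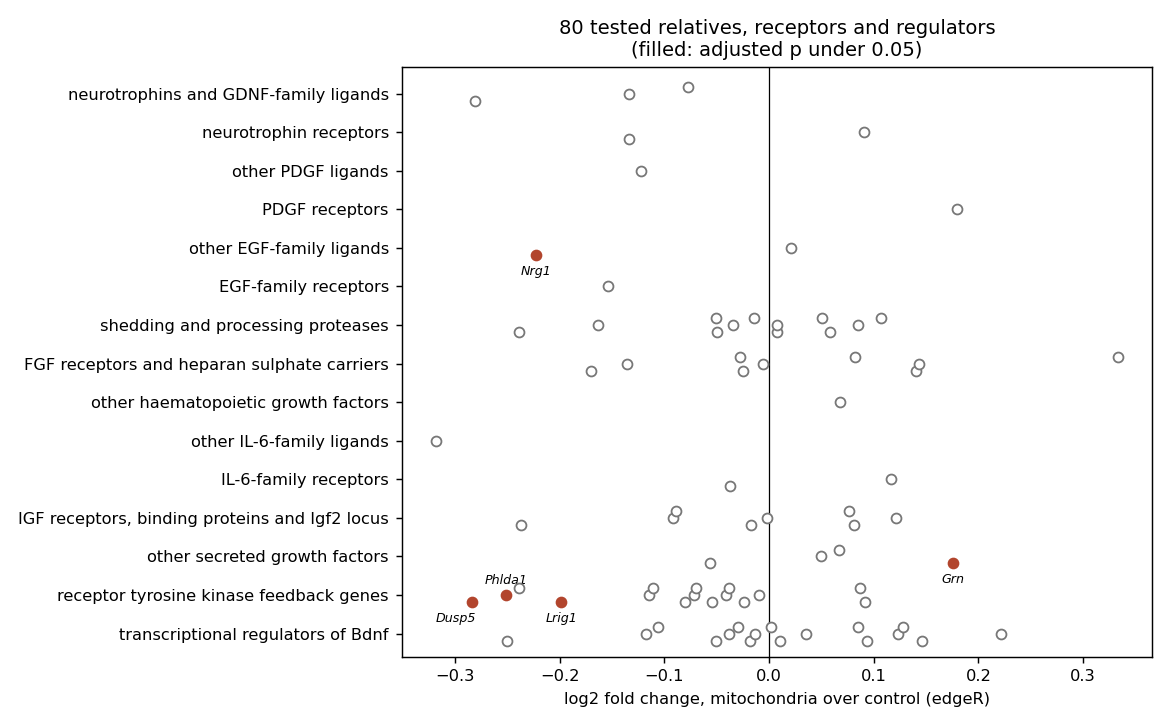
Log2 fold change, mitochondria over control (horizontal axis), of the 80 tested relatives, receptors, processing enzymes and regulators of the growth factors, a row for each list; filled points have an adjusted p under 0.05. The filled points are Nrg1 at −0.22, Grn at 0.18, and Dusp5, Phlda1 and Lrig1 at −0.28, −0.25 and −0.20.

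Enzymes that release or mature the ligands and factors that act on the Bdnf gene held no call in edgeR as designed. Of 12 tested shedding and processing genes, 2 had an unadjusted p under 0.05 in edgeR, beside 16.1% of all tested genes, and DESeq2 and limma called none. These were Pcsk7, a proprotein convertase (−0.24, SE 0.079), and Adam12, a metalloprotease (−0.16, SE 0.056). The main sheddases of EGF-family ligands had log2 fold changes of 0.0072 (Adam10, SE 0.036) and 0.085 (Adam17, SE 0.046), and Furin, which cleaves pro-BDNF and PDGF precursors, was at −0.049 (SE 0.045). Of 17 tested transcriptional regulators of Bdnf, 4 had an unadjusted p under 0.05 in edgeR, beside 16.1% of all tested genes, and none was called by edgeR as designed, by DESeq2 or by limma. In edgeR, Ep300 was called with scaling by library totals, at −0.17, and Mef2a, a relative of Mef2c, with the replicate block. The lowest p values were those of Ep300, a histone acetyltransferase (−0.12, SE 0.039, adjusted p = 0.169 in edgeR), and Mef2c, a MADS-box transcription factor (0.22, SE 0.094, adjusted p = 0.274; 0.10 without mitochondria 3).

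Over the 6 libraries, the growth factor genes differed in how closely they followed Bdnf. Pearson's correlation of log2 CPM with Bdnf was 0.905 for Ereg, 0.902 for Hbegf, 0.863 for Csf1, 0.774 for Fgf2, 0.656 for Pdgfb and −0.656 for Pdgfa. The 6 points share 2 groups and the same library scaling, so these values are a description with no test. Among 6295 genes ranked by this measure, the 5 most like Bdnf were Mtmr10 (0.993), Nrg1 (0.991), Cldn12 (0.991), Mrps23 (0.991) and Ghr (0.991). They were picked by likeness to Bdnf over these same libraries. Their differences and calls between the groups are therefore a description and not a separate result. Mtmr10 (a myotubularin-related gene) fell by 0.17 on the log2 scale (SE 0.035, adjusted p = 0.0265 in edgeR) and Ghr (the growth hormone receptor) by 0.20 (SE 0.039, adjusted p = 0.0256), and with 1 library left out each was called without mitochondria 2 and in no other fit. Cldn12 (a claudin) was at −0.17 (SE 0.045, adjusted p = 0.0855 in edgeR) and Mrps23 (a mitochondrial ribosomal protein gene) at −0.079 (SE 0.061, adjusted p = 0.584). All 5 had smaller differences between the groups than Bdnf, at −0.22 to −0.079 against −0.48.

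**Figure D5:**
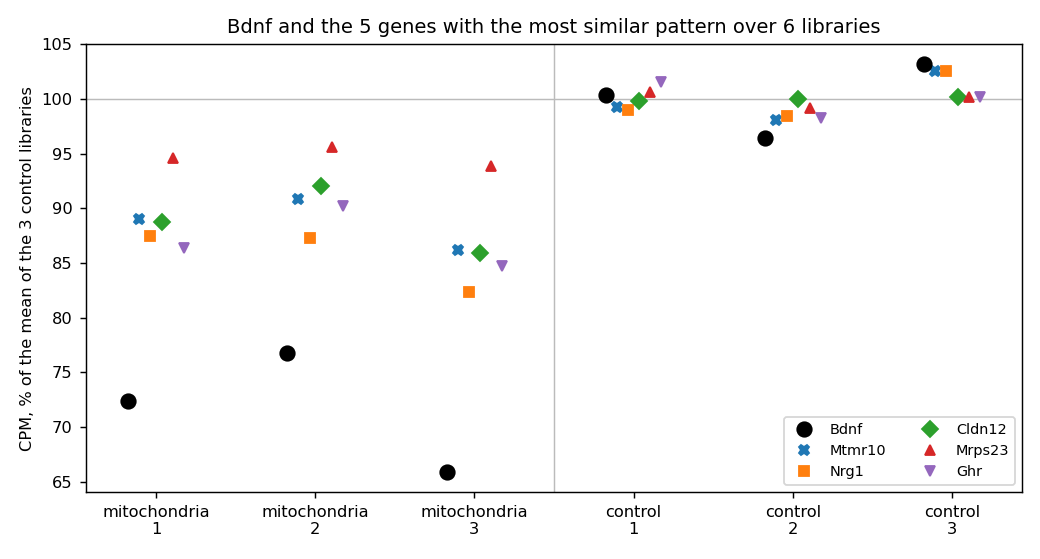
CPM of Bdnf and of the 5 genes with the most similar pattern, as a percentage of each gene's control mean (vertical axis, which does not start at 0), in the 3 mitochondria and the 3 control libraries. Bdnf (black circles), at 83.2 to 96.9 CPM in mitochondria libraries and 122 to 130 CPM in control libraries, lies below the other 5 in each mitochondria library, and mitochondria 3 is the lowest library for all 6 genes.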

How the data were processed

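RNA was sequenced from 6 libraries of bEnd.3 cells, 3 with mitochondria and 3 controls, grouped by their treatment label. Per the labels' protocols, a silica column was used to purify RNA and a stranded kit for mRNA to build libraries. The deposited table holds a raw count and an FPKM value per gene and library, per the file headers. Per the submitters' processing notes the build was GRCm38 and the named tools include StringTie 2.1.6, HISAT2 2.2.1 and cutadapt 1.9, with edgeR and DESeq2; the sources used here do not give their roles, the use of strand or the handling of reads from near-identical copies. Coordinates are the table's, and all 9 genes had the same ends in GENCODE M21.

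edgeR 4.0.16 (R 4.3.3, TMM, glmQLFit and glmQLFTest, group as the only term, two-sided, adjustment over 11255 genes) was the main test, as designed. Each SE was the size of the log2 fold change divided by the root of its F statistic. DESeq2 1.42.0, limma 3.58.1 on log2(FPKM + 1), log2(FPKM + 0.1) and log2(TPM + 1), other scalings and filters, the ribosomal share as a covariate, the replicate block and leaving out single libraries were alternatives. The scripts were tested on simulated data. Libraries of a group differed by more than counting noise (chi-square per gene 15.1 to 83.1); nothing says they were separate cultures, so the p-values reflect spread among these libraries alone, and that spread may be technical. The members, gene lists, motifs and tests were chosen with earlier results of these data known.

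Named are the 9 growth factors, every called gene of each list or otherwise up to 2 with the lowest p, the 5 genes most like Bdnf with a mean of at least 5 FPKM, and CT010467 and Lars2 for the ribosomal share. Cd68, Tgfa, Adam10, Adam17, Furin, Igf1r, Igf2r, the receptors below the filter, Csf2ra, Fgf15, Fgfr1, Mef2a and genes overlapping a member were added after their values were seen. Some listed genes are not reported here and are left out of the list counts.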

Additional observations from a re-analysis of the deposited data

How the results depend on the processing

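Bdnf fell in all 16 other analyses (log2 fold change −0.63 to −0.42) and was called in 15 of them, all but that with the ribosomal share as a covariate. These refits reuse the libraries on which Bdnf was chosen. They describe dependence on the processing and add no separate support. The 235 calls among all genes became 597 in DESeq2, 39 and 36 in limma on log2(FPKM + 1) and log2(FPKM + 0.1), 353 with library totals, 22 without the FPKM filter (27651 genes tested), 394 with the replicate block, 5 with the covariate, and 68 to 233 without 1 library. The 2 called growth factors became 4 in DESeq2, in limma on TPM and with library totals (Csf1 and Ereg added), 1 in both limma fits on FPKM and without the filter (Bdnf), 0 with the covariate (4 at an unadjusted p under 0.05 in edgeR), and 1 to 3 without 1 library. The 5 called relatives and regulators became 9 in DESeq2, 1 in both limma fits on FPKM, 0 without the filter (22 at an unadjusted p under 0.05 in edgeR) and 0 with the covariate (9 at an unadjusted p under 0.05), 8 with the replicate block, and 1 to 5 without 1 library. Why the counts of calls changed between settings was not tested. Replicate numbers were not shown to pair libraries: deviations of same-numbered libraries correlated at 0.061 to 0.090, and 1 of 3 mitochondria libraries matched its own number best. The block called 3 growth factors, with Ereg added. Of 583 values of 37 named genes, 8 changed sign. On TPM these were Pdgfa (−0.053), Sort1 (−0.056), Kitl (−0.091), Il6st (−0.042) and Igfbp4 (−0.037). Manf was 0.066 with the covariate, and Il11ra1 (−0.10 to 0.068 without 1 library) was 0.064 without mitochondria 2 and 0.068 without control 1. Lif, with under 100 counts a library, and Igf2, with under 30, were tested without the FPKM filter and not called there.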
